A study of Mus musculus with 9 samples.

Results

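B16F10 cells made to overexpress Sirpa were compared directly with B16F10 cells in which Sirpa was knocked down, 3 libraries against 3. The contrast was formed from the 6 libraries, of 9 in the series, whose titles name either of these lines, and it takes in the 12709 genes, of 51717 in the annotation matched, that were expressed highly enough to be tested. B16F10 is a pigmented, metastatic line of mouse melanoma, and the study sequenced mRNA of 3 forms of it. The labels give the forms as SIRPA overexpression, SIRPA knockdown and a non-target control, all grown in serum-supplemented DMEM with antibiotics and with no treatment named. The control line takes no part in the contrast, and its levels are given only to place those of the other lines. Each form is 1 line with 3 biological repeats. Whether the lines are clones or pools, how they were made and whether the control carries a vector matched to either of them is not given in the sources used here. The p-values therefore rest on variation among repeats within each line, not among lines made independently, and a difference between the lines may come from a shift in either of them.

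Sirpa encodes signal regulatory protein alpha, a transmembrane receptor that binds CD47 on neighbouring cells and recruits the tyrosine phosphatases SHP-1 and SHP-2 through its cytoplasmic tail. It is best known as the receptor through which CD47 restrains phagocytosis by macrophages, and it is also found on neurons and other cells. In melanocytes and pigmented melanoma the transcription factor MITF drives the genes of melanin synthesis and melanosome transport, while signalling from growth factor receptors through Ras, RAF and ERK switches on a set of feedback inhibitors and transcription factors.

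The deposited values are estimated counts per transcript, which were summed per gene. Library totals, in units of 1000000 counts, ranged from 17.24 to 21.4 in the overexpression line and from 16.54 to 22.38 in the knockdown line. The lines separated on the first principal component of the 6 libraries, which held 36.1% of the variance. The second held 20.8%. Replicate 1 of each line was positive on it (14.09 with overexpression, 33.2 with knockdown) and the remaining libraries were negative. Mitochondrial transcripts made up 2.37% to 2.51% of counts in the overexpression libraries and 2.36% to 2.57% in the knockdown libraries. All 12 markers of the melanocyte lineage were tested. Markers of other cell types were mostly absent: the leukocyte gene Ptprc and the epithelial gene Epcam had no counts in any of these libraries. Of macrophage and myeloid markers 2 of 17 could be tested, of T and NK cell markers 1 of 16, of B cell markers 0 of 9, and of epithelial markers 1 of 12. Summed levels of the macrophage markers were 3.23 to 4.18 CPM (counts per 1000000) in the overexpression libraries and 4.1 to 5.04 CPM in the knockdown libraries. Fibroblast markers, of which 6 of 13 were tested, summed to 127 to 138 CPM in the overexpression libraries and to 76.0 to 88.2 CPM in the knockdown libraries. Endothelial markers summed to 293 to 312 CPM in the overexpression libraries and to 346 to 381 CPM in the knockdown libraries, nearly all of it from Eng (298 ± 9.88 against 361 CPM).

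Sirpa (ENSMUSG00000037902, chromosome 2) followed the labels. It had 894, 897 and 913 CPM in the overexpression libraries, against 118, 112 and 115 CPM in the knockdown libraries. The libraries of a line lay close together and the lines did not overlap. The gap was 7.84-fold (log2 fold change 2.97, SE 0.04; adjusted p = 1.03e-14). Adjusted p-values here come from the quasi-likelihood test of edgeR, adjusted by the method of Benjamini and Hochberg over all genes tested. Per transcript length, Sirpa averaged 499 ± 48.0 TPM (transcripts per 1000000) in the overexpression line, 79.6 ± 9.21 TPM in the knockdown line and 167 ± 5.97 TPM in the control line (SD, n = 3 each), so the contrast spans levels above and below that of the control. Knockdown cells still held Sirpa RNA in every library. The transcript Sirpa-201 was estimated at 286 to 302 TPM in the overexpression libraries, was listed at 0 in all 3 knockdown libraries and stood at 20.5 to 22.3 TPM in the control libraries. Not all Sirpa transcripts ran this way. Sirpa-202 was estimated at 16.2 to 21.6 TPM in the knockdown libraries, against 0.141 to 1.25 TPM in the overexpression libraries. Sirpa-214 was listed at 0 in all overexpression libraries and at 27.9 to 41.0 TPM in the control libraries. How fragments were divided among near-identical Sirpa transcripts is less certain than the gene total.

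Cd47, the ligand, had 35.7, 35.4 and 37.2 CPM in the overexpression libraries and 41.8, 35.4 and 38.7 CPM in the knockdown libraries, which overlapped (adjusted p = 0.447). Ptpn6 and Ptpn11, the genes of SHP-1 and SHP-2, averaged 19.8 and 214 CPM in the overexpression line, against 20 and 203 CPM in the knockdown line (adjusted p = 0.944 and 0.295). The Cd47, Ptpn6 and Ptpn11 genes were chosen for description after their values were seen. Of 19 tested genes of the SIRP and CD47 axis and of SHP signalling 4 were higher in the overexpression line and 2 lower (median −0.09). That is 31.6% against 20.6% of all genes tested, but Sirpa, the manipulated gene, is among the 4 by design. Thbs1, which encodes thrombospondin-1, another ligand of CD47, was higher: 30.6, 36.0 and 33.2 CPM in the overexpression libraries, against 18.4, 16.3 and 16.4 CPM in the knockdown libraries (log2 fold change 0.96 ± 0.10; adjusted p = 1.48e-05). Lrp1, an endocytic receptor that cooperates with calreticulin in phagocytosis, was lower by 0.69 ± 0.08 on the log2 scale (59.6 against 95.8 CPM; adjusted p = 3.83e-05). The call of Lrp1 ended when the average transcript length of each gene in each library was used as an offset (adjusted p = 0.0903), a setting that corrects counts for shifts between long and short transcripts of a gene. With this length offset 2 genes of the list, Sirpa among them, were higher and 0 lower.

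In total 2613 of the 12709 genes tested, 20.6%, differed between the lines at an adjusted p under 0.05. They split evenly, with 1305 higher in the overexpression line (10.3%) and 1308 lower (10.3%). The counts given for gene lists stand against these shares. Most differences were small: the median absolute log2 fold change was 0.36 among called genes and 0.17 among all genes tested, and the median over all genes tested was 0.003. At least a 2-fold difference was reached by 260 called genes (2.05%), of which 169 were higher in the overexpression line (1.33%) and 91 lower (0.716%). At least 4-fold differences were more lopsided, with 54 higher and 17 lower. In 4640 genes (36.5%) the 3 libraries of one line all lay beyond the 3 of the other. With the transcript length offset 1054 genes (8.29%) were called in place of 2613, 546 higher and 508 lower. Counts given with the length offset stand against these lower numbers. With 1 library left out 13.7% to 19.9% of genes were called, and counts given for such fits stand against that.

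**Figure D1:**
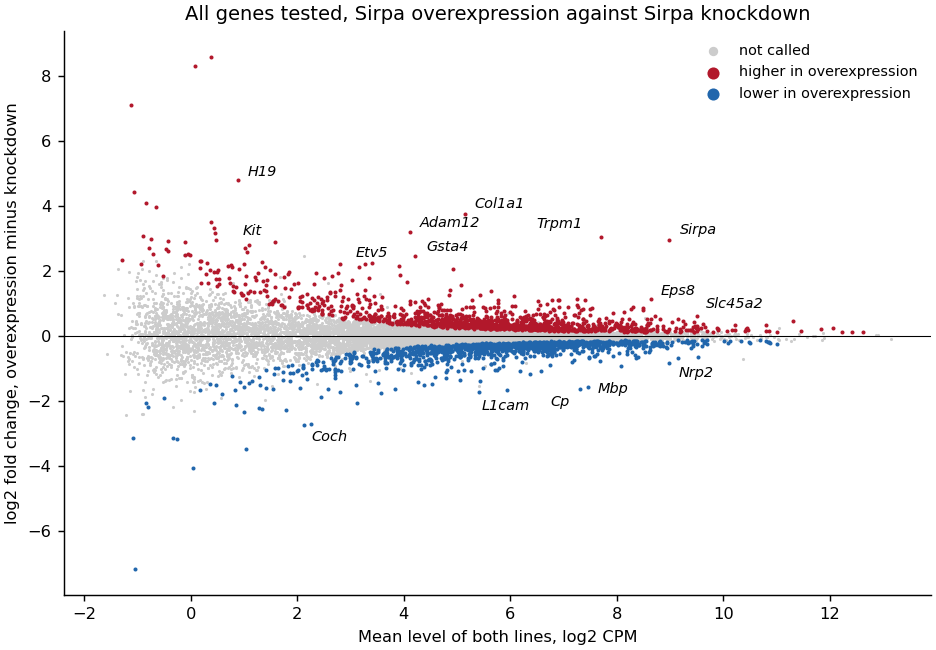
Each point is 1 of the 12709 genes tested, with the mean level of the overexpression and knockdown lines on the x axis (log2 CPM) and the log2 fold change, overexpression minus knockdown, on the y axis. Red points were called higher in the overexpression line (1305) and blue points lower (1308); Sirpa and Trpm1 stand apart among abundant genes.

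Among called genes whose libraries did not overlap and whose mean reached 5 CPM in at least 1 of the lines, Col1a1, which encodes a chain of type I collagen, led. It had 63.1, 70.1 and 65.9 CPM in the overexpression libraries, against 4.32, 4.81 and 5.7 CPM in the knockdown libraries (log2 fold change 3.76 ± 0.11; adjusted p = 3.09e-11). That every overexpression library was above every knockdown library was a condition of the choice. Adam12, the gene of a membrane-anchored metalloprotease, had 35.4, 29.6 and 29.5 CPM in the overexpression libraries, against 3.51, 4.16 and 2.67 CPM in the knockdown libraries (3.19 ± 0.15; adjusted p = 1.09e-08). Trpm1, a cation channel gene of melanocytes, had 368, 379 and 372 CPM in the overexpression libraries, against 47.0, 44.4 and 42.7 CPM in the knockdown libraries (3.06 ± 0.05; adjusted p = 3.25e-14). Of the 12 largest rises Sirpa and Trpm1 were the most abundant. Kit, the receptor for stem cell factor on which melanocyte precursors depend, was near the level limit, with 6.92, 4.76 and 4.12 CPM in the overexpression libraries, against 0.585, 0.238 and 1.34 CPM in the knockdown libraries (2.88 ± 0.47; adjusted p = 0.000681).

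The other large rises were in Gsta4, a glutathione transferase gene that detoxifies lipid aldehydes (2.46 ± 0.12), the kinesin gene Kif26a (2.24 ± 0.15), the small heat shock protein gene Hspb8 (2.23 ± 0.23) and the ubiquitin ligase gene Mid1 (2.23 ± 0.18). They were followed by the ETS transcription factor gene Etv5 (2.16 ± 0.15), the collagen gene Col8a1 (2.11 ± 0.17) and the retinoic acid receptor gene Rarb (1.98 ± 0.31). Their adjusted p-values ran from 1.41e-08 for Gsta4 to 0.000504 for Rarb. Mid1, Etv5 and Rarb share 31.1%, 30.3% and 35.7% of their 31-base words with other genes, which makes their counts less certain. The call of Rarb ended with the transcript length offset (adjusted p = 0.0573). No other call among the 12 largest rises ended under any of the 14 alternatives run.

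The 12 largest falls were chosen in the same way. Coch, which encodes the extracellular protein cochlin, had 1.08, 0.941 and 1.37 CPM in the overexpression libraries, against 7.56, 8.74 and 6.55 CPM in the knockdown libraries (log2 fold change −2.74 ± 0.27; adjusted p = 9.33e-06). Sema3c, a secreted semaphorin gene, had 3.25, 3.59 and 3.32 CPM in the overexpression libraries, against 13.8, 11.1 and 17.4 CPM in the knockdown libraries (−2.06 ± 0.20; adjusted p = 5.97e-06). Better expressed were the genes of ceruloplasmin, a copper-carrying ferroxidase, and of the neural adhesion molecule L1. Cp had 73.8, 81.0 and 75.3 CPM in the overexpression libraries, against 242, 224 and 250 CPM in the knockdown libraries (−1.64 ± 0.06; adjusted p = 4.26e-10). L1cam had 35.1, 23.8 and 29.4 CPM in the overexpression libraries, against 88.2, 94.8 and 95.5 CPM in the knockdown libraries (−1.65 ± 0.11; adjusted p = 1.82e-07). In neither gene did the lines overlap, which was a condition of the choice. The rest were Nckap5 (−2.27 ± 0.31), the monoacylglycerol acyltransferase gene Mogat1 (−1.86 ± 0.28), Sec16b, a gene of the secretory pathway (−1.76 ± 0.17), and the kinase scaffold gene Akap12 (−1.73 ± 0.32). Clvs1 (−1.71 ± 0.08; 35.3% of its words shared), the neuronal adhesion gene Negr1 (−1.63 ± 0.22), the hyaluronan link protein gene Hapln1 (−1.62 ± 0.15) and Cercam (−1.61 ± 0.36) completed the set. Of these calls only that of Mogat1 ended under any of the 14 alternatives, with the transcript length offset (adjusted p = 0.161).

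**Figure D2:**
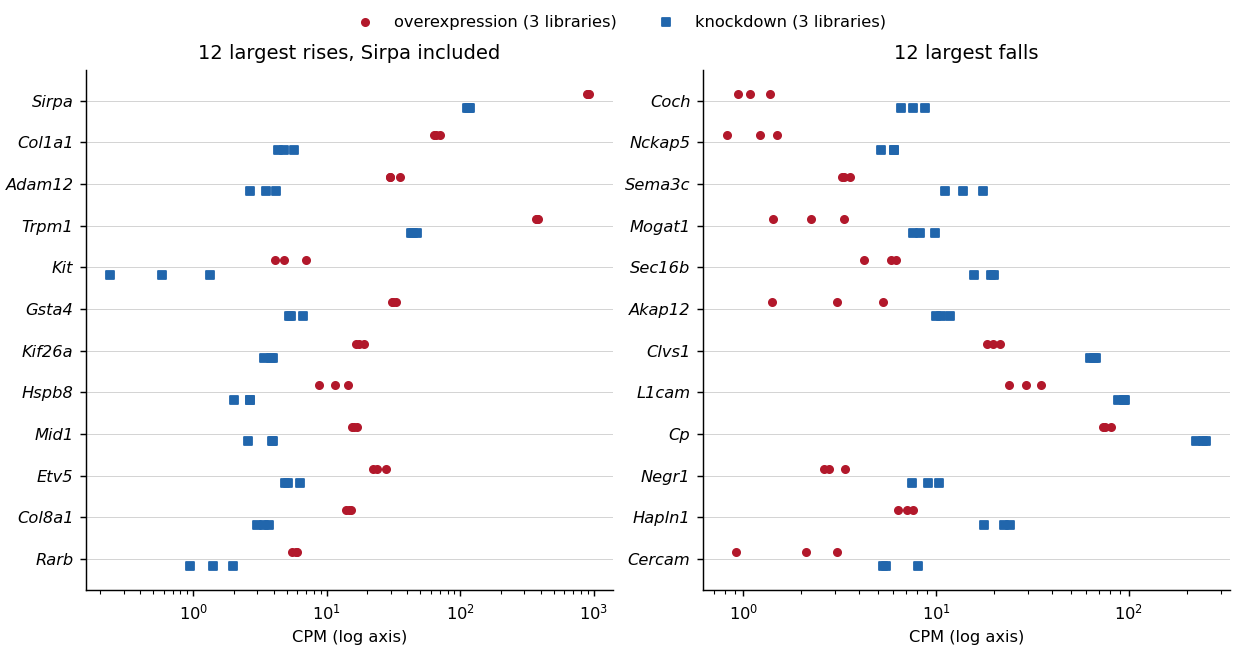
Levels per library in CPM, on a log axis, of the 12 largest rises, Sirpa included (left), and the 12 largest falls (right), with 3 overexpression libraries as red circles above 3 knockdown libraries as blue squares. The colours do not overlap in any gene, a condition of the choice, and the falls lie mostly under 25 CPM apart from Clvs1, L1cam and Cp.

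Most of the melanocyte differentiation and pigment genes tested were higher in the overexpression line. Of 25 tested members 16 were called higher (64.0%) and 0 lower, against 10.3% of all genes tested in each direction. The median log2 fold change was 0.22, against 0.003 over all genes tested. With the transcript length offset 11 were higher and 0 lower. Summed over the list, the level was 29246 to 29691 CPM in the overexpression libraries and 25631 to 26466 CPM in the knockdown libraries. The list, like all lists here, was chosen with earlier results of these libraries known, so its counts are a description.

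Besides Trpm1 and Kit no member was called at a 2-fold difference or more. Slc45a2, a melanosomal transporter gene, had 888, 904 and 871 CPM in the overexpression libraries, against 572, 566 and 588 CPM in the knockdown libraries (log2 fold change 0.63 ± 0.04; adjusted p = 1.62e-07). Tspan10, a tetraspanin gene of pigment cells, had 358, 343 and 364 CPM in the overexpression libraries, against 236, 264 and 233 CPM in the knockdown libraries (0.54 ± 0.05; adjusted p = 7.47e-06). Tyr, the gene of tyrosinase, which catalyses the rate-limiting step of melanin synthesis, had 591, 627 and 591 CPM in the overexpression libraries, against 463, 421 and 450 CPM in the knockdown libraries (0.44 ± 0.05; adjusted p = 1.8e-05). In all of these genes each overexpression library exceeded each knockdown library. Rab27a, whose product ties melanosomes to the actin cytoskeleton, was higher by 0.47 ± 0.05 (200 against 145 CPM).

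Members chosen for description after their values were seen included the melanocortin receptor gene Mc1r (174 against 133 CPM; log2 fold change 0.38 ± 0.05), the dopachrome tautomerase gene Dct (0.26 ± 0.03) and the melanosome matrix gene Pmel (0.21 ± 0.04). Mitf, the lineage transcription factor, had 345, 330 and 326 CPM in the overexpression libraries, against 296, 288 and 284 CPM in the knockdown libraries (0.21 ± 0.04; adjusted p = 0.00398). The call of Pmel, and those of Mlph, Oca2, Gpr143 and Gpnmb, ended under at least 1 alternative. The other lineage transcription factors were level: Sox10 averaged 413 CPM in the overexpression line and 416 CPM in the knockdown line, and Pax3 averaged 188 and 194 CPM (adjusted p = 0.911 and 0.556). Tyrp1 and Mlana, a melanin synthesis enzyme and a melanosomal antigen, were not called either (7765 against 7571 CPM and 901 against 881 CPM; adjusted p = 0.565 and 0.602).

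Promoters of Trpm1, Tspan10, Tyr and Dct are shown, all from the members found to hold a matching word, so they do not stand for the whole list. The words were searched because MITF, which drives many pigment genes, binds the E-box CATGTG, which reads CACATG on the other strand, and the related CACGTG. The sequences are the 250 bases before the annotated start, from RefSeq on GRCm38.p6, written 5′ to 3′ on the strand of the gene, with each matching word in capitals.
Trpm1 (chr7:64153585-64153834, + strand): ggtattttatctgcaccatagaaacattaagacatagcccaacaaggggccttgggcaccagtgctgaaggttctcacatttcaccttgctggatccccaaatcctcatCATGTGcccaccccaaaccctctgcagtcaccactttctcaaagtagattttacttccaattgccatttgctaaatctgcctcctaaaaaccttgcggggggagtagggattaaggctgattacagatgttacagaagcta
Tspan10 (chr11:120442381-120442630, + strand): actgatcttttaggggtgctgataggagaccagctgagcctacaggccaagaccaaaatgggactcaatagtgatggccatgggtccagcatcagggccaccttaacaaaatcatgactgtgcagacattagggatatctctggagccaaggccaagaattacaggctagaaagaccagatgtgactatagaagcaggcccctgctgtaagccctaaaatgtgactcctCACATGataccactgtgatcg
Tyr (chr7:87493513-87493762, − strand): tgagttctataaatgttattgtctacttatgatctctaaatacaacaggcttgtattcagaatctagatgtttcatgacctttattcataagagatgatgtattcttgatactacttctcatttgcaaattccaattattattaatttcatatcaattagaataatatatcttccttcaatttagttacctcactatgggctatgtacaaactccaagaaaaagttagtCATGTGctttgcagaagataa
Dct (chr14:118052247-118052496, − strand): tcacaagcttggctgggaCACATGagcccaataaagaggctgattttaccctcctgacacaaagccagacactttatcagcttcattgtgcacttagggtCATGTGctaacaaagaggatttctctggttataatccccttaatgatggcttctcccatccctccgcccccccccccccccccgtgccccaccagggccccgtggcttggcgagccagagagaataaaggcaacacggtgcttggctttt
In Trpm1, for which the table lists 2 starts and the window of 1 is shown, the word stands 141 to 136 bases before the start. In Tspan10 and Tyr it stands 21 to 16 bases before the start, on opposite strands, and in Dct words stand 232 to 227 and 150 to 145 bases before it. Windows were found for 13 of the 16 members called higher, and 10 of them hold at least 1 such word on either strand. Of the 9 members not called, 5 have a window and 2 of these hold a word, Tyrp1 and Atp7a. Over all genes with a window, 19.8% of 27025 hold a word. The word CATGTG, on either strand, occurs in 12.3% of all 32851 windows, while CACGTG occurs in 6.02% and either of them in 17.6%. A match gives letters only, and binding was not measured.

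**Figure D3:**
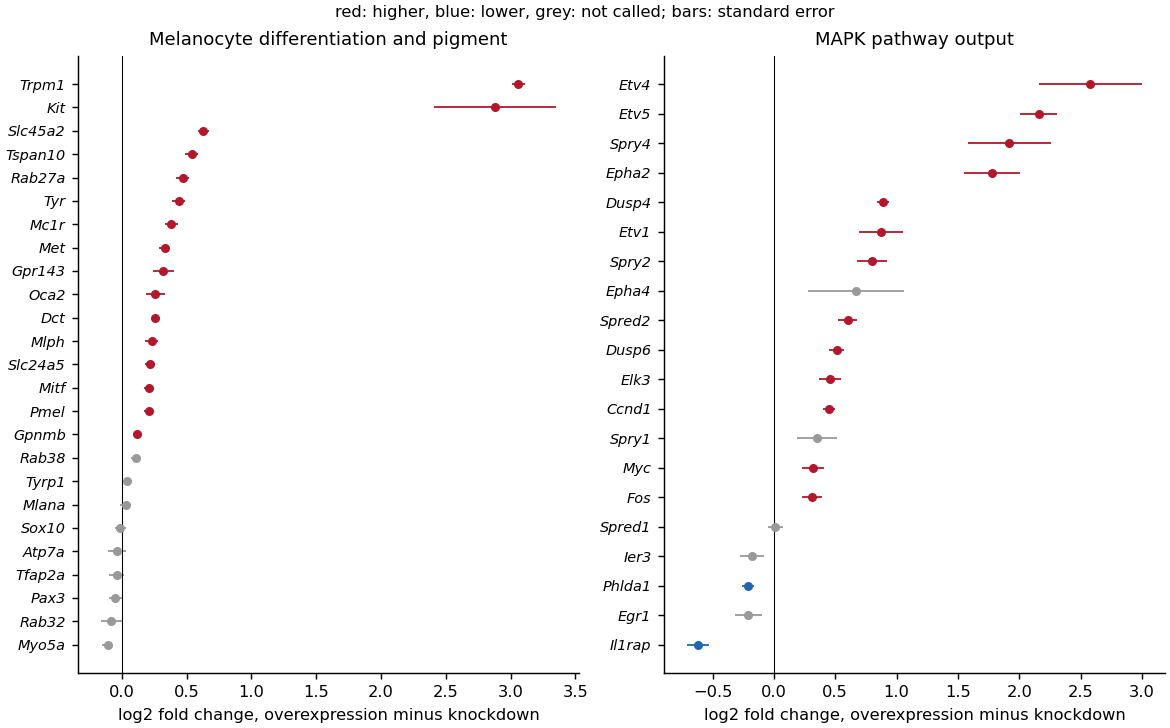
Log2 fold change, overexpression minus knockdown, with its standard error (x axis) for each tested member of the melanocyte differentiation list (left, 25 genes) and of the MAPK output list (right, 20 genes). Red genes were called higher (16 and 13), blue genes lower (0 and 2) and grey genes were not called; Trpm1 and Kit on the left and Etv4, Etv5, Spry4 and Epha2 on the right lie well beyond the rest.

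Most of the tested genes switched on by the ERK branch of MAPK signalling were higher in the overexpression line: 13 of 20 tested members were called higher and 2 lower, with a median log2 fold change of 0.48. Dusp4, a nuclear phosphatase that inactivates ERK, had 153, 158 and 163 CPM in the overexpression libraries, against 84.1, 85.3 and 85.9 CPM in the knockdown libraries (0.89 ± 0.05; adjusted p = 6.74e-08). Etv5, with the values 27.7, 23.6 and 22.1 CPM in the overexpression libraries and 6.34, 4.87 and 5.1 CPM in the knockdown libraries, was 4.47-fold higher. The lines did not overlap in either gene, which for Etv5 was a condition of its choice among the largest rises. Ccnd1, the cyclin D1 gene, was higher by 0.45 ± 0.05 (278 against 203 CPM) and Dusp6, the cytoplasmic ERK phosphatase gene, by 0.51 ± 0.06 (129 against 90.8 CPM).

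Further members, described after their values were seen, included the related factor gene Etv4 (3.56 against 0.596 CPM, 2.58 ± 0.42), the feedback inhibitor genes Spry4 (5.6 against 1.48 CPM, 1.92 ± 0.34) and Spry2 (20.1 against 11.5 CPM, 0.80 ± 0.12), and Spred2 (42.1 against 27.8 CPM, 0.60 ± 0.08). The members called lower were Il1rap, a subunit of the interleukin-1 receptor (29.8 against 45.8 CPM, −0.62 ± 0.09), and Phlda1 (162 against 187 CPM, −0.21 ± 0.05). The call of Phlda1 ended with the length offset (adjusted p = 0.0749) and without overexpression replicate 1 (0.0818) or 3 (0.059). With the length offset 9 members were higher and 1 lower. Ccnd1, Etv5 and Phlda1 share 22.3%, 30.3% and 30.8% of their words with other genes.

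Genes upstream in this pathway did not move together. Of 22 Ras and RAF regulators 3 were higher and 4 lower (median 0.00), and 1 and 2 with the length offset. The members called included the exchange factor gene Rasgrp3 (214 against 178 CPM, 0.26 ± 0.05), whose call ended under at least 1 alternative, and Sos1, another exchange factor gene (96.5 against 121 CPM, −0.33 ± 0.06). Of 24 receptor tyrosine kinase genes 4 were higher and 4 lower, and 3 and 2 with the length offset. Besides Kit, the ephrin receptor gene Epha2 (8.86 against 2.56 CPM, 1.78 ± 0.23) and the hepatocyte growth factor receptor gene Met (0.33 ± 0.04) were higher, and Epha3 was lower (239 against 350 CPM; −0.55 ± 0.04; adjusted p = 1.1e-06). Of 16 AP-1 and immediate early genes 5 were higher and 2 lower (median 0.31), and 2 and 1 with the length offset. Nr4a1, an orphan nuclear receptor gene, had 85.1, 83.1 and 89.9 CPM in the overexpression libraries, against 40.9, 47.9 and 46.9 CPM in the knockdown libraries (0.93 ± 0.08; adjusted p = 1.21e-06), and the lines did not overlap. Klf4 was higher (9.82 against 4.6 CPM, 1.09 ± 0.19), while Klf6 (84.9 against 125 CPM, −0.57 ± 0.07) and Jun (43.9 against 52.9 CPM, −0.27 ± 0.07) were lower. The call of Jun ended under at least 1 alternative.

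Genes of dedifferentiated or invasive melanoma split: of 15 tested 6 were higher in the overexpression line and 3 lower (median 0.16), and 3 and 2 with the length offset. Cdh2, the N-cadherin gene, had 146, 152 and 155 CPM in the overexpression libraries, against 228, 237 and 228 CPM in the knockdown libraries (−0.61 ± 0.05; adjusted p = 7.46e-07). Zeb2 (145 against 185 CPM, −0.35 ± 0.06), a transcription factor gene of the neural crest, and Vim (1736 against 2011 CPM, −0.21 ± 0.05), the vimentin gene, were lower too. The receptor kinase gene Axl was higher (18.8 against 9.84 CPM, 0.93 ± 0.14), but its call ended with the length offset (adjusted p = 0.356). The calls of Vim, Sparc and Sox9 ended under at least 1 alternative as well. Fn1, the fibronectin gene, described after its values were seen, had 122, 112 and 135 CPM in the overexpression libraries and 112, 109 and 110 CPM in the knockdown libraries, which overlapped (adjusted p = 0.111).

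Of 28 tested cadherins and immunoglobulin-type adhesion genes 11 were lower in the overexpression line, 2 were higher and 15 were not called (median −0.17). With the length offset 7 were lower and 0 higher. Besides L1cam and Cdh2, Alcam, an adhesion molecule of activated leukocytes and melanoma, had 33.8, 28.9 and 28.1 CPM in the overexpression libraries, against 58.7, 54.1 and 65.8 CPM in the knockdown libraries (−0.97 ± 0.09; adjusted p = 5.9e-06). Pcdh7, a protocadherin gene, was lower by 0.51 ± 0.06 on the log2 scale (60.6 against 86.1 CPM). The higher members were the syndecan gene Sdc3 (0.37 ± 0.10) and the cadherin gene Cdh15 (1.06 against 0.131 CPM), and both calls ended under at least 1 alternative.

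Of 18 integrin genes 7 were lower and 2 higher (median −0.26), and 4 and 1 with the length offset. Itga4 (82.4 against 125 CPM, −0.60 ± 0.07), Itga6 (99.3 against 132 CPM, −0.41 ± 0.06) and Itga5 (52.3 against 67.0 CPM, −0.36 ± 0.07), the alpha subunits of fibronectin and laminin receptors, were lower. Itgav, the alpha subunit of receptors for vitronectin and for latent TGF-beta, went the other way, with 162, 157 and 159 CPM in the overexpression libraries, against 104, 93.2 and 97.8 CPM in the knockdown libraries (0.70 ± 0.06; adjusted p = 9.89e-07). Its libraries did not overlap between the lines. Without overexpression replicate 1, 4 integrin genes were lower. The other higher member was Itga9 (33.9 against 25 CPM), whose call ended under at least 1 alternative.

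Among 20 collagen genes 8 were higher in the overexpression line and 3 lower (median 0.40), and 5 and 3 with the length offset. Col4a1 and Col4a2, neighbours that encode the main chains of basement membrane collagen, were lower (34.7 against 71.0 CPM, −1.03 ± 0.08; 28.4 against 45.1 CPM, −0.67 ± 0.10). Col4a5 was lower too (34.8 against 49.9 CPM, −0.52 ± 0.09), while Col4a4 was higher (14.8 against 7.37 CPM, 1.01 ± 0.14). The fibrillar and short-chain collagen genes Col1a1 and Col8a1 were among the higher members too. Without overexpression replicate 1, 4 collagen genes were called higher, and without knockdown replicate 2, 5. Of the fibroblast markers, whose summed level was higher in the overexpression libraries, Col1a1 alone averaged 66.4 against 4.95 CPM. Pdpn was higher (25 against 16.5 CPM) and Postn, the periostin gene, was lower (14.2 against 34.0 CPM, −1.26 ± 0.11). The other members tested, Col1a2 (8.38 against 8.61 CPM), Pdgfra and Pdgfrb, were not called. Fap and Thy1 had no counts in either line. The part of other cell types in these differences was not tested.

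Of 33 matrix glycoprotein and proteoglycan genes 6 were higher and 10 lower (median −0.16), and 3 and 7 with the length offset. Higher were the elastic fibre genes Fbln5 (204 against 118 CPM; 0.79 ± 0.05; adjusted p = 2.2e-07) and Fbln1 (179 against 115 CPM, 0.64 ± 0.06). Hspg2, the perlecan gene of basement membranes, was lower (105 against 182 CPM, −0.79 ± 0.07). Of 27 metalloproteases and inhibitors 4 were higher and 6 lower, and 3 and 3 with the length offset. Adam23, a catalytically inactive family member, was higher beside Adam12 (14.2 against 5.24 CPM, 1.43 ± 0.19), and Adamts1, a proteoglycan-degrading protease gene, was lower (261 against 367 CPM, −0.49 ± 0.04).

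Of 38 actin-binding and contractility genes 7 were higher and 8 lower (median −0.04), and 3 and 5 with the length offset. Fscn1, the gene of fascin, which bundles actin in filopodia, had 38.8, 40.4 and 40.6 CPM in the overexpression libraries, against 68.2, 84.7 and 76.3 CPM in the knockdown libraries (−0.93 ± 0.08; adjusted p = 2.79e-06), with no overlap. With any of the 3 knockdown libraries or overexpression replicate 1 or 3 left out, 3 or 4 members were higher. Cald1, the caldesmon gene, was lower (261 against 392 CPM, −0.59 ± 0.05), and Tagln, a smooth muscle actin-binding gene that shares 62.2% of its words with other genes, was higher at a low level (2.45 against 0.245 CPM, 3.32 ± 0.54).

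Genes of the TGF-beta and BMP pathways and their Id targets moved both ways, 5 of 25 higher and 3 lower (median 0.04), and 3 and 3 with the length offset. Id3, an inhibitor of helix-loop-helix transcription factors and a BMP target, had 76.8, 71.4 and 76.1 CPM in the overexpression libraries, against 41.7, 44.3 and 46.1 CPM in the knockdown libraries (0.77 ± 0.07; adjusted p = 3.92e-06). Its relative Id1 was higher too (13.8 against 6.92 CPM, 0.99 ± 0.17), as was Ltbp1, which holds latent TGF-beta in the matrix (10.6 against 3.54 CPM, 1.57 ± 0.23). Of receptor genes, Bmpr2 had 139, 142 and 135 CPM in the overexpression libraries, against 220, 215 and 225 CPM in the knockdown libraries (−0.67 ± 0.05; adjusted p = 3.49e-07), and Tgfbr2 was lower by 0.36 ± 0.07 on the log2 scale. Of 24 Wnt and beta-catenin genes 16.7% were called, against 20.6% of all genes tested: 1 was higher, Ctnnb1 (0.20 ± 0.04), and 3 lower, and 2 and 1 with the length offset. The lower members included the R-spondin receptor gene Lgr4 (28.4 against 42.2 CPM, −0.57 ± 0.09). Of 19 genes listed for YAP and TEAD 5 were higher (3 with the length offset) and 2 lower (median 0.01). The lower ones were Crim1 (−0.59 ± 0.06) and Wwtr1 (−0.46 ± 0.07), which encodes the TEAD co-activator TAZ and not a target. Without overexpression replicate 1, 3 genes each of the YAP and TGF-beta lists were higher, and without overexpression replicate 2, 3 of the TGF-beta list.

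Myelin, glial and neural crest genes were lower in the overexpression line in 7 of 18 tested members and higher in 2 (median −0.12), and in 4 and 0 with the length offset. Mbp, the myelin basic protein gene, had 90.1, 82.0 and 95.6 CPM in the overexpression libraries, against 269, 283 and 243 CPM in the knockdown libraries (−1.57 ± 0.07; adjusted p = 3.47e-09). Pmp22, which encodes a membrane protein of peripheral myelin, had 34.4, 40.2 and 37.8 CPM in the overexpression libraries, against 61.3, 63.6 and 72.9 CPM in the knockdown libraries (−0.82 ± 0.09; adjusted p = 1.48e-05). The lines did not overlap in either gene. Mal, the gene of a myelin and lymphocyte proteolipid, was nearly absent from the overexpression line (0.112 against 1.95 CPM, −4.07 ± 0.64). Without overexpression replicate 1, 4 members were lower. The call of Sox9, which was higher, ended under at least 1 alternative.

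Of 39 axon guidance genes 6 were higher and 11 lower (3 and 6 with the length offset), with a median of 0.03 that changed sign under 3 alternatives. Nrp2, a co-receptor for semaphorins and VEGF-C, had 360, 368 and 369 CPM in the overexpression libraries, against 654, 646 and 649 CPM in the knockdown libraries (−0.83 ± 0.04; adjusted p = 1.09e-08). The libraries of a line agreed closely, and the lines lay far apart. Sema3b was lower with Sema3c (92.9 against 127 CPM, −0.45 ± 0.06), and Sema6d (99.4 against 70.2 CPM, 0.50 ± 0.06) and the netrin receptor gene Unc5b (13.2 against 7.07 CPM, 0.90 ± 0.14) were higher. Of 20 synaptic and neuronal genes 2 were higher and 2 lower, near the share over all genes, with the synapsin gene Syn1 lower (4.45 against 9.19 CPM) and the tubulin gene Tubb3 higher (131 against 98.8 CPM, 0.41 ± 0.07). Of 28 genes of cGMP and cAMP signalling 3 were higher and 8 lower (median −0.15), and 1 and 7 with the length offset. The lower members of lowest adjusted p included the adenylyl cyclase gene Adcy3 (45.6 against 60.8 CPM, −0.41 ± 0.07) and the protein kinase A subunit gene Prkar2b (92.2 against 120 CPM, −0.38 ± 0.07).

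Targets of p53 were lower in the overexpression line than in the knockdown line in 7 of 22 tested members and higher in 2 (median −0.16), and in 4 and 2 with the length offset. Trp53inp1, which promotes autophagy-dependent death and p53 activity, had 185, 187 and 189 CPM in the overexpression libraries, against 375, 337 and 360 CPM in the knockdown libraries (−0.93 ± 0.05; adjusted p = 1.78e-08). Mdm2, the gene of the p53 ubiquitin ligase, had 179, 190 and 180 CPM in the overexpression libraries, against 245, 225 and 234 CPM in the knockdown libraries (−0.36 ± 0.05; adjusted p = 0.000148). No overexpression library reached the lowest knockdown library in either gene. Apaf1, the apoptosome gene, was lower by 0.42 ± 0.05 on the log2 scale. Cdkn1a, the p21 gene, was lower (329 against 373 CPM, −0.18 ± 0.04), a call that ended with the length offset (adjusted p = 0.0672). The higher members were Tigar, a regulator of glycolysis (55.8 against 44.7 CPM, 0.32 ± 0.07), and Ei24 (15.3 against 10.9 CPM), whose call ended under at least 1 alternative.

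Of 29 replication and S phase genes 11 were higher in the overexpression line and 0 lower, by small amounts (median 0.09), and 3 were higher with the length offset. Without knockdown replicate 1 or 3, or overexpression replicate 1 or 2, 6, 5, 5 and 6 were higher. They included Rrm2, a ribonucleotide reductase subunit gene (607 against 506 CPM, 0.26 ± 0.04), the helicase subunit gene Mcm5 (278 against 223 CPM, 0.32 ± 0.05) and the thymidine kinase gene Tk1 (174 against 140 CPM, 0.32 ± 0.06). Of 29 mitosis and spindle genes 0 were higher and 3 lower, 10.3% called against 20.6% of all genes tested. The median of −0.01 changed sign under 3 alternatives, and 1 was lower with the length offset. Mki67, the proliferation marker gene, had 444, 409 and 438 CPM in the overexpression libraries, against 564, 546 and 566 CPM in the knockdown libraries (−0.38 ± 0.04; adjusted p = 4.2e-05). The other mitotic members called, Kif23 and Nusap1, lost their calls under at least 1 alternative. Of 20 G1 cyclins and CDK inhibitors 3 were higher and 4 lower (2 and 1 with the length offset), with Cdk2 higher (428 against 341 CPM, 0.33 ± 0.04) and the pocket protein gene Rbl2 lower (86.2 against 112 CPM, −0.38 ± 0.06).

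Interferon-stimulated genes were higher in the overexpression line in 13 of 40 tested members and lower in 4 (median 0.22), and in 8 and 2 with the length offset. Ifit1, whose product binds viral RNA, had 22.5, 27.5 and 25 CPM in the overexpression libraries, against 13.2, 9.45 and 13.0 CPM in the knockdown libraries (1.06 ± 0.14; adjusted p = 9.62e-05). Isg15, the gene of a ubiquitin-like modifier, described after its values were seen, had 9.99, 10.6 and 9.67 CPM in the overexpression libraries, against 4.68, 5.05 and 3.46 CPM in the knockdown libraries (1.20 ± 0.19; adjusted p = 0.000615). All overexpression libraries lay above all knockdown libraries in both genes. The RNA sensor gene Ddx58 (46.9 against 32.5 CPM, 0.53 ± 0.08) and Lgals3bp (211 against 170 CPM, 0.32 ± 0.04) were higher too. The 4 lower members were Trim30a (8.56 against 16.9 CPM, −0.98 ± 0.15), the guanylate-binding protein gene Gbp2 (11.2 against 17.3 CPM, −0.62 ± 0.12), Trim25 (−0.38 ± 0.08) and Parp12 (−0.24 ± 0.07). The calls of Trim25 and Parp12 ended under at least 1 alternative.

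Of 20 tested MHC class I antigen presentation genes, some of them also known to respond to interferon, 0 were higher in the overexpression line and 10 lower (median −0.19). The 10 included the chaperone genes Calr and Pdia3. The classical heavy chain gene H2-K1, which shares 22.8% of its words with other genes, had 21.8, 23.5 and 19 CPM in the overexpression libraries, against 35.7, 33.2 and 33.3 CPM in the knockdown libraries (−0.67 ± 0.10; adjusted p = 0.000275). B2m, the light chain gene, had 227, 244 and 232 CPM in the overexpression libraries, against 272, 257 and 285 CPM in the knockdown libraries (−0.21 ± 0.05; adjusted p = 0.00842). The lines did not overlap in either gene. The peptide transporter genes Tap1 (8.39 against 12.9 CPM) and Tap2 (3.85 against 6.63 CPM), described after their values were seen, and the loading chaperone gene Tapbp (51.5 against 67.0 CPM, −0.38 ± 0.07) were lower. Without overexpression replicate 1 the count was 6. With the length offset 2 of the 20 were called lower, against 508 of all 12709 genes tested. The calls of B2m, Tap1, Tap2 and Tapbp were among those that ended.

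Of 14 checkpoint ligands and immune recognition genes 4 were higher and 1 lower. Cd276, which encodes the B7-H3 checkpoint ligand, had 25.1, 25.2 and 25.9 CPM in the overexpression libraries, against 8.91, 8.14 and 7.22 CPM in the knockdown libraries (1.65 ± 0.12; adjusted p = 4e-07). Lgals3, the galectin-3 gene, had 57.8, 61.3 and 57.2 CPM in the overexpression libraries, against 33.7, 36.9 and 33.3 CPM in the knockdown libraries (0.76 ± 0.07; adjusted p = 6.08e-06). Neither gene overlapped between the lines. The butyrophilin gene Btn2a2 was higher at a low level (3.52 against 0.529 CPM, 2.70 ± 0.42). Of 18 NF-kB targets and chemokines 3 were higher and 4 lower (median −0.28), and 2 and 2 with the length offset. The NF-kB subunit genes Nfkb1 (96.3 against 125 CPM, −0.38 ± 0.06), Nfkb2 (40.2 against 53.2 CPM, −0.40 ± 0.08) and Relb (9.04 against 14.5 CPM, −0.68 ± 0.14) were lower, and the chemokine gene Ccl5 was higher (7.36 against 3.63 CPM, 1.01 ± 0.22). The call of Nfkb2 ended under at least 1 alternative.

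**Figure D4:**
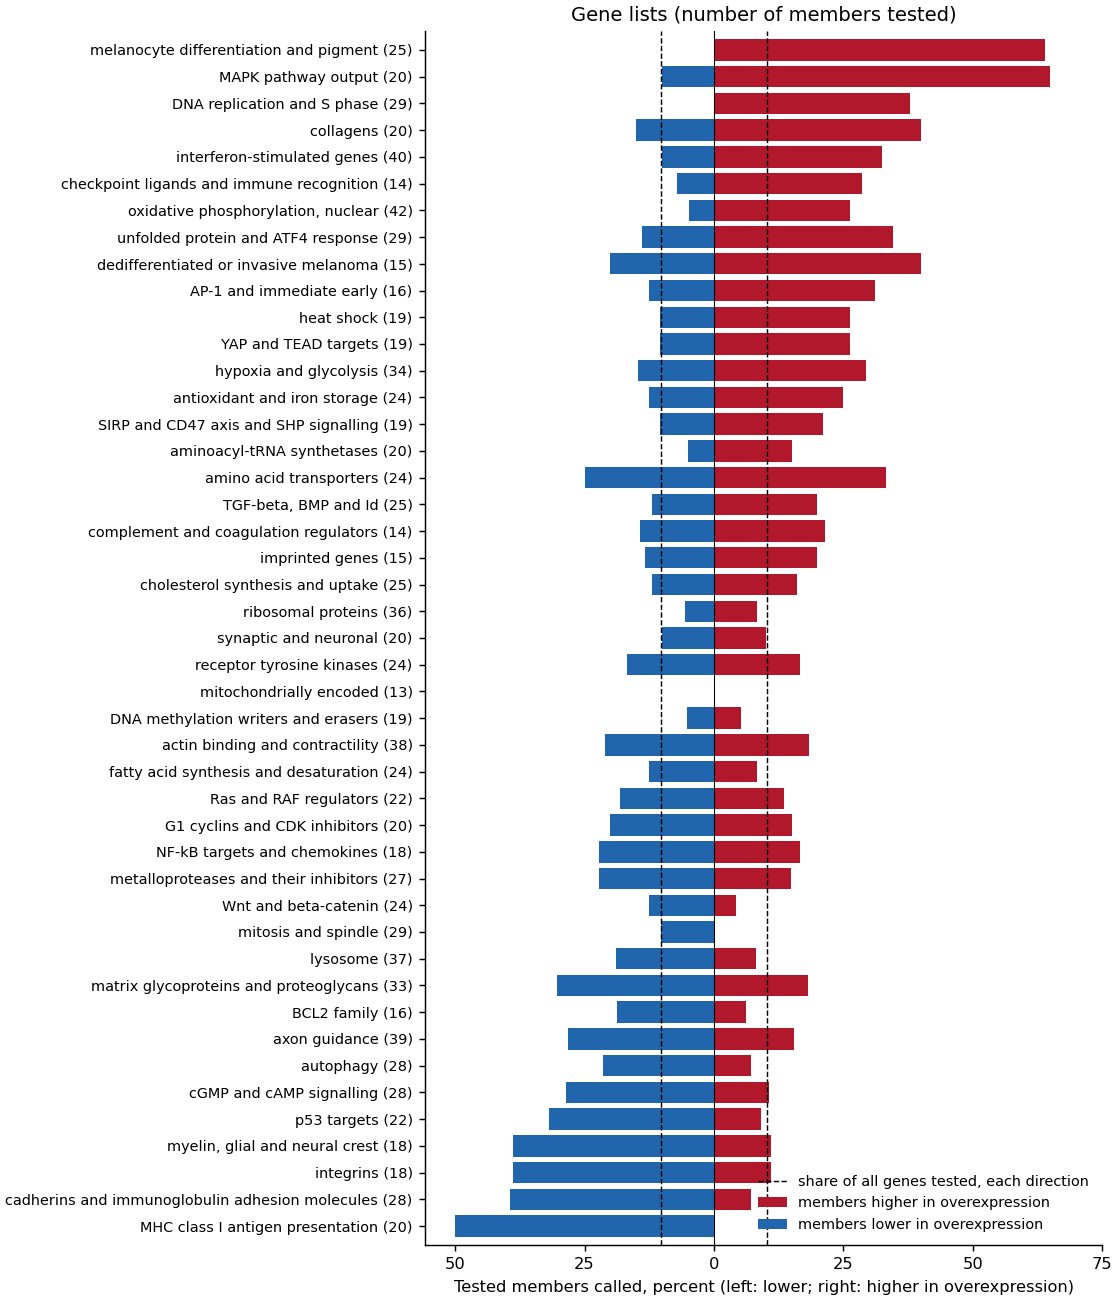
Share of tested members called higher (red, to the right) and lower (blue, to the left) in the overexpression line, in percent, for the 45 gene lists, with the number tested in brackets and dashed lines at 10.3%, the share of all genes tested in each direction. Pigment and MAPK output genes reach the farthest right (64.0% and 65.0%) and MHC class I genes the farthest left (50.0%).

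Of 29 unfolded protein and ATF4 response genes 10 were higher, 4 lower and 15 not called (median 0.06). Atf5, a transcription factor gene translated under stress, had 204, 196 and 183 CPM in the overexpression libraries, against 112, 133 and 115 CPM in the knockdown libraries (0.70 ± 0.07; adjusted p = 5.97e-06). Slc7a5 (427 against 336 CPM, 0.35 ± 0.05) and Slc3a2 (340 against 273 CPM, 0.31 ± 0.05), the subunits of the large neutral amino acid transporter, and Herpud1 (229 against 180 CPM, 0.35 ± 0.05), of the degradation pathway of the endoplasmic reticulum, were higher. The members called lower were the chaperone genes Hspa5 (1747 against 1987 CPM, −0.19 ± 0.04), Hsp90b1 (−0.24 ± 0.04) and Pdia3 (−0.22 ± 0.04), and Sel1l (−0.19 ± 0.05), whose call ended under at least 1 alternative. Of 24 amino acid transporter genes 8 were higher and 6 lower, and 4 and 2 with the length offset. The creatine transporter gene Slc6a8 had 119, 127 and 120 CPM in the overexpression libraries, against 76.4, 84.0 and 68.3 CPM in the knockdown libraries (0.68 ± 0.07; adjusted p = 1.81e-05), and the taurine transporter gene Slc6a6 was lower (592 against 763 CPM, −0.37 ± 0.04). Without knockdown replicate 1 or any of the overexpression libraries, 2 or 3 transporter genes were lower. Of 20 aminoacyl-tRNA synthetase genes 3 were higher and 1 lower, near the share over all genes, among them Aars (763 against 626 CPM, 0.28 ± 0.04).

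Of 42 nuclear genes of oxidative phosphorylation 11 were higher and 2 lower (median 0.11), for example Ndufs1, of complex I (249 against 189 CPM, 0.40 ± 0.05), while 0 of the 13 mitochondrially encoded genes were called in either direction (median −0.09). Of these 13 genes 5 had an unadjusted p under 0.05 in edgeR, and DESeq2 and limma-voom called 0. Up to 1 of them was called higher and up to 3 lower under other alternatives, both counts being reached with no low-count filter and without knockdown replicate 2. With the length offset 4 of the 42 were higher, and without knockdown replicate 3 or any of the overexpression libraries 5 or 6. Of 34 hypoxia and glycolysis genes 10 were higher and 5 lower (5 and 4 with the length offset), with the hexokinase gene Hk2 higher (139 against 108 CPM, 0.37 ± 0.06) and Ndrg1 lower (55.2 against 75.2 CPM, −0.45 ± 0.08). Of 25 cholesterol genes 4 were higher and 3 lower (2 and 0 with the length offset), with Insig1, a brake on sterol synthesis, higher (367 against 285 CPM, 0.37 ± 0.04). Of 24 fatty acid genes 2 were higher and 3 lower, 20.8% against 20.6% of all genes tested, with the acyl-CoA synthetase gene Acsl1 higher (31.6 against 18.6 CPM, 0.77 ± 0.10) and the desaturase gene Scd1 lower (417 against 518 CPM, −0.31 ± 0.04).

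Of 24 antioxidant and iron storage genes 6 were higher and 3 lower, and 2 and 1 with the length offset. Fth1, the ferritin heavy chain gene, had 2896, 3031 and 2873 CPM in the overexpression libraries, against 2032, 2130 and 2246 CPM in the knockdown libraries (0.46 ± 0.04; adjusted p = 4.37e-06). Gpx4, which protects membranes from lipid peroxides and shares 38.9% of its words with other genes, was lower (266 against 332 CPM, −0.32 ± 0.05). Of 37 lysosome genes 3 were higher and 7 lower (median −0.03), and of 28 autophagy genes 2 were higher and 6 lower (median −0.09). Called in either direction were 27.0% and 28.6% of them, against 20.6% of all genes tested. With the length offset 2 lysosome genes and 2 autophagy genes were lower. Gabarap, an ATG8 family gene of autophagosomes, stood against its list, with 166, 169 and 163 CPM in the overexpression libraries, against 79.5, 72.9 and 78.5 CPM in the knockdown libraries (1.11 ± 0.06; adjusted p = 1.3e-08). The autophagy receptor genes Sqstm1 (−0.22 ± 0.04) and Tax1bp1 (−0.26 ± 0.05) were lower. Of 36 ribosomal protein genes 3 were higher and 2 lower (median 0.02), 13.9% against 20.6% of all genes tested. Of 19 heat shock genes 5 were higher and 2 lower, and 2 and 1 with the length offset. Leaving out single libraries moved some of these counts: antioxidant genes called higher numbered 3, 2 and 3 without knockdown replicate 3 or overexpression replicate 1 or 2. Lysosome genes called lower numbered 3 without overexpression replicate 2 or 3, and heat shock genes called higher numbered 3 without knockdown replicate 3 or any overexpression library. Of 16 BCL2 family genes 1 was higher and 3 lower, and 0 and 1 with the length offset. Of 14 complement and coagulation regulators 3 were higher and 2 lower, and 1 and 0 with the length offset. With the replicate block, too, only 1 of these regulators was called higher. Of 19 genes that write or erase DNA methylation 1 was higher and 1 lower, and 1 and 1 with the length offset.

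Of 39 imprinted genes 15 could be tested, of which 3 were higher and 2 lower, 33.3% against 20.6% of all genes tested. Their median of −0.02 changed sign under 3 alternatives, and with the length offset 3 were higher and 1 lower. Mest had 119, 128 and 125 CPM in the overexpression libraries, against 62.7, 52.9 and 61.4 CPM in the knockdown libraries (1.07 ± 0.07; adjusted p = 1.97e-07), with 22% of its words shared. Peg10, a retrotransposon-derived gene, was higher (201 against 108 CPM, 0.90 ± 0.07) and Igf2r, the receptor that clears IGF2, was lower (255 against 406 CPM; −0.67 ± 0.05; adjusted p = 2.3e-07). The maternally expressed non-coding RNA H19 had 4.62, 2.47 and 3.72 CPM in the overexpression libraries, against 0.225, 0 and 0.121 CPM in the knockdown libraries (4.80 ± 0.63; adjusted p = 0.000115). Its TPM averaged 2.58 in the overexpression line, 0.273 in the knockdown line and 20.2 in the control line.

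Several of the lowest adjusted p-values belonged to genes on none of the lists, described after their values were seen. Eps8, whose product links growth factor receptors to actin and Rac, had 545, 561 and 557 CPM in the overexpression libraries, against 245, 239 and 267 CPM in the knockdown libraries (1.15 ± 0.05; adjusted p = 2.94e-09). Gjb2, the connexin 26 gene, had 218, 242 and 241 CPM in the overexpression libraries, against 108, 109 and 106 CPM in the knockdown libraries (1.12 ± 0.05; adjusted p = 1.09e-08). In both genes the overexpression line was about as far above the knockdown line, with no overlap. The mitochondrial dicarboxylate carrier gene Slc25a10 (1.11 ± 0.06) and the serine hydroxymethyltransferase gene Shmt2 (0.89 ± 0.05) were higher too. Lower in the overexpression line were the complement protease gene Masp1 (51.1 against 114 CPM, −1.16 ± 0.06), the neuronal adhesion gene Cntn1 (−1.48 ± 0.10), the receptor gene Notch1 (−1.36 ± 0.10) and Txnip, which restrains glucose uptake (−0.98 ± 0.07). Nr3c2, the mineralocorticoid receptor gene, had 1.04, 0.823 and 0.916 CPM in the overexpression libraries and no counts in the knockdown libraries, and was at least 17.3-fold higher, with a floor of 3 counts over the knockdown libraries together.

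The control line was set beside these differences in TPM, without a test. Of the 1305 genes higher in the overexpression line, the control mean lay between the other lines for 638 (48.9%), above both for 400 (30.7%) and below both for 267 (20.5%). Of the 1308 lower genes it lay between for 545 (41.7%), below both for 652 (49.8%) and above both for 111 (8.49%). For the 13 higher MAPK output genes the control mean lay above both lines for 7, between for 5 and below both for 1. It lay below both lines for 9 of the 10 lower MHC class I genes and for 6 of the 7 lower p53 targets. For the 16 higher pigment genes it lay between for 6, below both for 6 and above both for 4. Trpm1 averaged 264 ± 13.2 TPM in the overexpression line, 30.2 ± 1.55 TPM in the knockdown line and 165 ± 3.18 TPM in the control line, the order of Sirpa itself. Col1a1 was close to control with overexpression (16.4 ± 1.04, 1.26 ± 0.211 and 13.3 ± 0.501 TPM with overexpression, with knockdown and in control). Adam12 was highest in the control line, with 8.58 ± 1.13 TPM in the overexpression line, 1.42 ± 0.625 TPM in the knockdown line and 14.2 ± 1.59 TPM in the control line. Cp and L1cam stood near the control level with overexpression and above it with knockdown. Mbp was above control in both lines (80.2 ± 7.83, 257 ± 23.6 and 36.7 ± 6.29 TPM with overexpression, with knockdown and in control), as was Trp53inp1 (52.5 ± 2.46, 101 ± 4.4 and 39.5 ± 2.95 TPM).

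**Figure D5:**
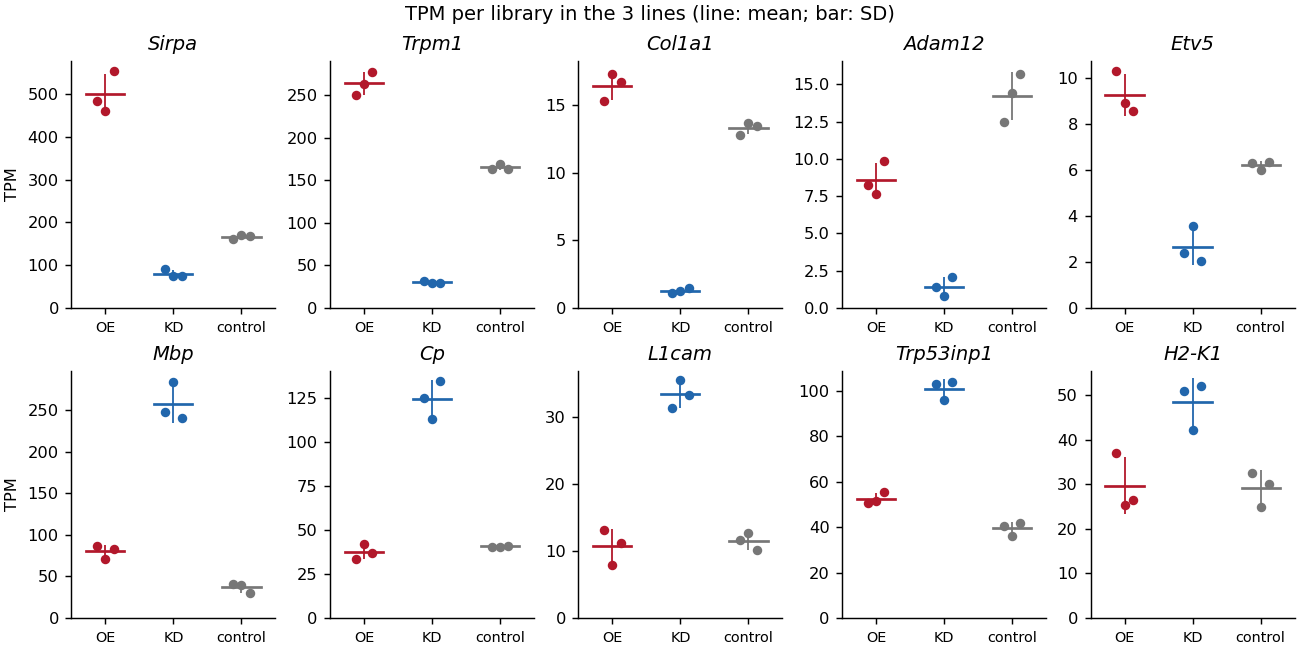
TPM per library (points), mean (line) and SD (bar) of 10 genes in the overexpression (OE), knockdown (KD) and control lines, on axes that start at 0. Sirpa, Trpm1 and Etv5 run in the order overexpression, control, knockdown, while Cp and L1cam are raised only in the knockdown line among the 3 and Adam12 is highest in the control line.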

How the data were processed

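mRNA of the SIRPA overexpression and SIRPA knockdown lines, 3 libraries each, was compared, and 3 control libraries were used for levels only. Per the labels, libraries were non-directional and read as pairs of 150 bases, so reads of overlapping antisense genes cannot be told apart. The deposited tables hold, per the file headers, an estimated count, TPM and effective length per transcript. Per the submitters' processing notes, the authors used build mm39 with Salmon 1.4.0, DESeq2 1.34.0 and MultiQC 1.11. Read trimming is not given in the sources used here. The mm39 annotation was not used here, and no gene coordinates are given other than those of RefSeq promoters on GRCm38.p6.

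Of 140789 transcripts 137161 (97.42%) matched the GENCODE M21 annotation; the rest held 0.55% to 0.65% of counts and were left out. Estimated counts were summed per gene and rounded. edgeR 4.0.16 (R 4.3.3) was run on the 6 libraries with filterByExpr, TMM and a quasi-likelihood fit, and p-values were adjusted by Benjamini-Hochberg over all 12709 genes tested; a gene was called at an adjusted p under 0.05. SEs were derived from the fold change and its F statistic. CPM uses TMM library sizes. Chi-square per degree of freedom between replicates was 5.46 to 10.69, so none duplicates another. Total counts limit the precision of low genes, and SDs cover the spread between libraries only.

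Named genes were Sirpa, the 12 largest rises and falls among called genes with separate libraries and a mean of 5 CPM in 1 line, in each list the 4 or fewer members of lowest adjusted p and members called against their list. Predicted genes and pseudogenes were left out, and some genes under the rule are not reported here. The contrast, the 45 gene lists and 7 marker lists and the rule were chosen with earlier results of these data known. Alternatives were DESeq2 size factors, DESeq2 1.42.0, limma-voom (limma 3.58.1), no low-count filter, a filter of 1 CPM in 3 libraries, all 9 libraries in the fit, a replicate block, a transcript length offset and leaving out each library. The fit was tested on simulated data.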

Additional observations from a re-analysis of the deposited data

How the results depend on the processing

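The numbers of called genes, higher genes and lower genes stayed within 1.5 times of 2613, 1305 and 1308 under DESeq2 (2745 called), limma-voom (2640), DESeq2 size factors (2615), no low-count filter (2961), a filter of 1 CPM in 3 libraries (2646) and all 9 libraries in the fit (2887). With the transcript length offset they were 1054, 546 and 508, of which 1006 were shared with the 2613; the common coefficient of variation was 0.163 in that fit and 0.098 without the offset, and the cause was not tested. Leaving out 1 library gave 1775 to 2598 called genes, 879 to 1315 higher, 896 to 1283 lower and 221 to 250 at least 2-fold apart. Deviations of same-numbered libraries of the lines correlated at 0.155, −0.016 and 0.067, against −0.157 to 0.092 for the other pairs. Replicate 1 was the deepest library of both lines, and whether same-numbered libraries share a batch was not tested. With the replicate block 2392 genes were called, 1194 higher and 1198 lower. Signs turned only in genes that were not called, near 0. Ptpn6 was at 0.02 with the length offset and at −0.11 to 0.07 without single libraries, Lyz2 at −0.01 to 0.83, Tyrp1 at −0.01 to 0.07 and Sox10 at −0.03 to 0.03. The endothelial marker Vwf was at 0.01 with limma-voom, −0.08 to 0.09 without single libraries and 2.33 with the length offset, the lone such case past the threshold (adjusted p = 0.0236, the cause not tested). Of 273 genes called among those covered by the naming rule or described, 99 lost their call under at least 1 of the 14 alternatives. Of the counts and medians of the 45 lists under the alternatives, 1678 stayed within 1.5 times of the reported count or within 1 SD between repeats of the reported median and 212 moved beyond. At these depths genes under about 1 CPM rest on few counts.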
